A study of Mus musculus with 8 samples.

Results

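The change between 3 h and 8 h of CpG stimulation was measured in mouse bone marrow-derived dendritic cells of 2 genotypes, RelB-DBDB and IFNAR;RelB-DBDB. It rests on 4 of 8 RNA-seq libraries, 1 for each genotype at 3 h and at 8 h, with the 2 genotypes as the 2 pairs. Genes entered when they reached at least 1 CPM (reads scaled to a library total of 1000000) in at least 2 of these 4 libraries, which 11742 of 25017 named rows of the table did. Arhgap32 lay just inside this limit, with a second-highest value of 1.02 CPM, and Tmc3 just outside it, with 0.994 CPM.

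The cells came from C57BL/6 mice and had been grown from bone marrow with GM-CSF at 20 ng/ml and IL-4 at 10 ng/ml. The stimulated groups then received 0.1 µM of CpG oligonucleotide ODN 1668 for 1, 3 or 8 h, and the control group of each genotype carries a 1 h label. Both genotypes carry the RelB-DBDB allele, and IFNAR;RelB-DBDB is also labelled as lacking the type I interferon receptor, which the series text calls IFNARko. Reads of Ifnar1, a chain of that receptor, were present in both genotypes, at 127, 123, 102 and 125 CPM (control, 1, 3 and 8 h) in RelB-DBDB and 86.3, 102, 56.1 and 68.2 CPM in IFNAR;RelB-DBDB. Which part of the gene is altered is not given, so these reads neither check nor contradict the label. What the DBDB allele changes is not spelled out in the labels, and cells with unaltered Relb were not analysed here. The age of the mice, pooling of animals and separate cultures are not given either, so the p-values measure only the spread between these libraries, which may be technical. No control was collected with the 3 h or 8 h libraries, so the step holds CpG and longer culture together.

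CpG DNA is recognised by the endosomal receptor TLR9, which signals through MyD88 to NF-κB and MAP kinases. Inflammatory genes follow at different times: some are transcribed at once from open chromatin, and others need newly made factors such as IκBζ or C/EBP proteins, or an autocrine cytokine such as interferon β. Their mRNAs also differ in how fast they are destroyed and in how strongly feedback inhibitors shut them off. IL-4, with which these cells were grown, acts through STAT6 and induces lectin receptors and arginase, the marks of alternative activation. A step from 3 h to 8 h therefore separates late induction, decay after an early peak, and late repression.

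The libraries held 3711818 to 37221530 reads. The deepest, RelB-DBDB at 8 h, had 6.26% of its reads on mitochondrial genes, against 1.74% to 2.41% in the other 7. A count of 0 allows a level of up to 0.0806 to 0.808 CPM, depending on the library. Summed dendritic cell markers stood at 11862 to 14794 CPM at 3 h and at 8328 to 13544 CPM at 8 h, and macrophage and monocyte markers at 1911 to 1971 CPM and at 1538 to 2181 CPM, so transcripts of both lineages were read in every library. The erythroid markers Hba-a1 and Hba-a2, the plasmacytoid marker Siglech and the stromal marker Lum were at 0 in all 4 libraries of the step. Other members of their lists were read. Summed plasmacytoid markers stood at 146 to 185 CPM at 3 h and 134 to 338 CPM at 8 h. Stromal markers stood at 43.8 to 56.6 and 37.5 to 44.5 CPM, and erythroid markers at 1.60 to 5.10 and 0.484 to 4.04 CPM. The zeros therefore do not show that these cell types were absent. In bulk samples fewer cells of a type and less RNA per cell cannot be told apart, and this holds for every change given here.

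Between 3 h and 8 h the scavenger receptor gene Marco and the acute-phase genes Lcn2, Saa3, Hp and Cp rose in both genotypes, while 7 of 23 tested genes induced by IL-4 fell, among them lectin receptors and enzymes. Genes of iron and haem handling were called in both directions. Most early cytokine genes, among them Tnf, Il1b and Il6, were not called for a shared step and moved less than 2-fold in both genotypes. Of all genes tested 85.2% moved that little. Limma on log2(CPM + 1), with Benjamini-Hochberg adjustment over all genes tested, called 79 genes higher at 8 h (0.673%) and 133 lower (1.13%). The 212 calls are 1.81% of all genes tested, and 2215 genes had an unadjusted p under 0.05. All 212 had the same sign in both genotypes. The model favours this, since its spread comes from disagreement between genotypes, and over all tested genes 57.5% had the same sign. A fold of at least 2 in both genotypes, with no test, was reached upward by 94 genes (0.801%) and downward by 136 (1.16%), of which 59 and 98 were also called.

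**Figure D1:**
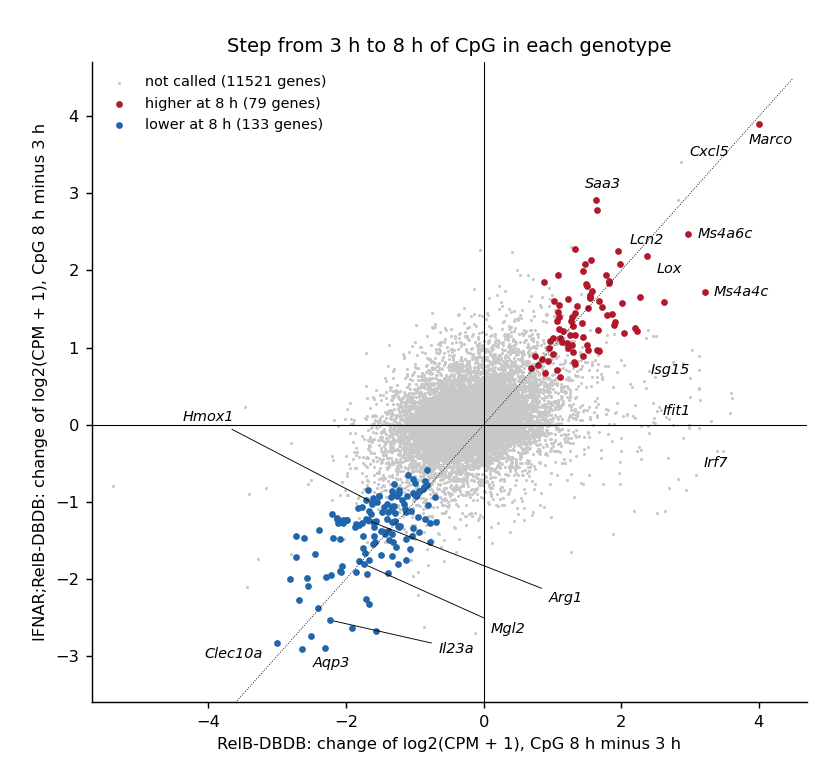
Change of log2(CPM + 1) from 3 h to 8 h in RelB-DBDB (x axis) and in IFNAR;RelB-DBDB (y axis), 1 point per gene with a name on 1 row, with the 79 called higher in red, the 133 called lower in blue and the dotted line marking equal steps. Called genes lie near the dotted line, and Irf7, Ifit1 and Isg15 lie far to its right, with no call for a shared step.

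Single libraries decide much of this. Limma called 0 genes once the 3 h library of either genotype was left out, with 1024 (RelB-DBDB left out) and 1229 genes (IFNAR;RelB-DBDB left out) at an unadjusted p under 0.05. Leaving out 1 control or 1 h library gave 19 to 27 calls. Leaving out the 8 h library of RelB-DBDB gave 536 higher and 509 lower genes, and leaving out that of IFNAR;RelB-DBDB gave 1451 and 3588, in both cases with all 212 among them. Marco, Lcn2, Cd38 and Ms4a6c among the genes that rose, and 15 of those that fell, were called in 6 of the 8 fits, every one that kept both 3 h libraries.

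The called genes were sorted by where they stood at 3 h against the control of their own genotype, with a fold of 2 as the border. Of the 79 that rose, 51 were late-induced (3 h within 2-fold of control), 19 were still rising (already at least 2-fold above it), 4 were recovering from a level at least 2-fold below it and 5 were mixed between genotypes. Of the 133 that fell, 95 were late-repressed, 16 were decaying from a 3 h level at least 2-fold above control, 9 were still falling and 13 were mixed. At 8 h 77 of the 79 risen genes lay above control in both genotypes. Of the 133 fallen genes 117 lay below control in both, and 9 were still above it in both.

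Marco, which encodes a class A scavenger receptor that binds bacteria and particles, rose more than any other called gene. Across control, 1, 3 and 8 h its level in RelB-DBDB was 0.190, 0.325, 23.5 and 392 CPM, and in IFNAR;RelB-DBDB 0.0835, 0.594, 16.9 and 266 CPM. Both 8 h libraries stood far above both 3 h libraries, which in turn stood far above the 4 earlier ones. The log2 step was 3.95 ± 0.254 (SE, adjusted p = 0.00521 by limma). Within RelB-DBDB the ratio of 8 h to 3 h was 16.7 (exact 95% Poisson interval 14.6 to 19.3, counting error only) and within IFNAR;RelB-DBDB 15.7 (12.7 to 19.7).

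Acute-phase proteins, secreted in inflammation to bind iron, haemoglobin and lipid, formed the next group. Lcn2, whose product lipocalin-2 withholds bacterial siderophores, measured 33.7, 33.0, 68.3 and 268 CPM over the same conditions in RelB-DBDB and 39.8, 33.4, 75.9 and 364 CPM in IFNAR;RelB-DBDB. Its level had about doubled by 3 h and both 8 h libraries were more than 3 times higher again, with a log2 step of 2.10 ± 0.153 (SE, adjusted p = 0.00521). Saa3, a serum amyloid A gene made by macrophages, went from 30.5 to 96.5 CPM in RelB-DBDB cells and in IFNAR;RelB-DBDB cells from 20.6 to 161 CPM (log2 step 2.27, adjusted p = 0.0276). Its step was larger in IFNAR;RelB-DBDB by 1.28 on the log2 scale (adjusted p = 0.000748 for the difference). Hp, which encodes haptoglobin, went from 18.1 to 46.8 and from 25.3 to 127 CPM (log2 step 1.80, adjusted p = 0.0354), and Cp, which encodes the ferroxidase ceruloplasmin, from 3.31 to 13.2 and from 7.28 to 22.9 CPM (log2 step 1.62, adjusted p = 0.0233). Cp was late-induced, with its 3 h levels close to control, while Saa3 and Hp were still rising.

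A list of 31 tested late inflammatory and acute-phase genes held 9 that rose (0.673% of all genes did) and none that fell. Serpinb2, a plasminogen activator inhibitor of this list, was at least 2-fold lower in both genotypes without a call (log2 step -1.21, adjusted p = 0.114). Beside the genes above these were Il1rn, Sod2 and the matrix metalloproteinase genes Mmp9 and Mmp14. The median log2 step of the list was 0.49, against -0.09 over all genes tested. Il1rn, which encodes the IL-1 receptor antagonist, went from 224 to 641 CPM in RelB-DBDB cells and in IFNAR;RelB-DBDB cells from 155 to 306 CPM (log2 step 1.24, adjusted p = 0.0455). Neutrophils also make several of these products, and the summed neutrophil markers were 228 (3 h) and 133 CPM (8 h) for RelB-DBDB, and 211 and 217 CPM for IFNAR;RelB-DBDB, with the granule gene Ltf among the genes that fell (log2 step -1.39, adjusted p = 0.0386). The part of other cell types was not tested.

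The promoters of Marco, Cxcl3, Saa3 and Lcn2 are shown as examples picked by hand from the 79 genes that rose, all of them in both genotypes. They do not stand for that group. The NF-κB and C/EBP families are textbook regulators of late inflammatory genes. The windows run from 250 bases before to 50 bases after the RefSeq start on build GRCm38.p6, as chr1:120504975-120505274 for Marco (minus strand), chr5:90785851-90786150 for Cxcl3 (plus strand), chr7:46715627-46715926 for Saa3 (minus strand) and chr2:32387690-32387989 for Lcn2 (minus strand). Capitals mark matches, on either strand, to an NF-κB motif (GGG, any 2 bases, TTTCC), a C/EBP motif (TTGC, any 2 bases, AA) or a STAT6 motif (TTC, any 4 bases, GAA).
Marco: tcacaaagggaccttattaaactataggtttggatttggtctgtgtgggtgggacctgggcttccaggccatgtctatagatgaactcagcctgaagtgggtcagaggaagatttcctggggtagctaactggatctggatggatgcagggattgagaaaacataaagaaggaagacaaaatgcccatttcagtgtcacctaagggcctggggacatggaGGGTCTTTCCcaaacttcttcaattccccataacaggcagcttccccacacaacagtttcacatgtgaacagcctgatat
Cxcl3: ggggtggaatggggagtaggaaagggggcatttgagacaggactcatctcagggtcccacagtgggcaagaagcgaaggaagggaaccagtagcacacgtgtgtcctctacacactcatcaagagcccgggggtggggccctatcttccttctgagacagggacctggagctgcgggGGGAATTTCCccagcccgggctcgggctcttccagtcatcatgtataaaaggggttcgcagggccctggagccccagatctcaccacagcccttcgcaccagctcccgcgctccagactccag
Saa3: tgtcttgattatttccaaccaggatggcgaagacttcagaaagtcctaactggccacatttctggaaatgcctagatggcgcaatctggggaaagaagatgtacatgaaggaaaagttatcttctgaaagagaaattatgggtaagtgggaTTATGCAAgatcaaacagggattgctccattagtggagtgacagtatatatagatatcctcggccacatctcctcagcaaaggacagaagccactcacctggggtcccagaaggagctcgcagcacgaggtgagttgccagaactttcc
Lcn2: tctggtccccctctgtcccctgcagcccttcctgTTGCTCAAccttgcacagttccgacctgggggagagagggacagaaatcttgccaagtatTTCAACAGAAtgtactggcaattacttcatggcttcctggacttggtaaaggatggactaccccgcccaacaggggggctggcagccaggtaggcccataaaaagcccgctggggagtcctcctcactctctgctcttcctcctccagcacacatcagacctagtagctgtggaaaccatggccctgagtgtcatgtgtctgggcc

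Counted from the start site, the NF-κB match lay at -30 to -21 in Marco and at -73 to -64 in Cxcl3. The C/EBP match lay at -99 to -92 in Saa3, on the opposite strand, and at -216 to -209 in Lcn2. Lcn2 also had a STAT6 match at -156 to -147, which reads as a match on both strands. The windows of Mgl2 and Mrc1, IL-4-induced genes that fell, were read in the same way. They held no match to any of these motifs and are not shown. The NF-κB motif was found in 5 of 82 promoters of risen genes (6.10%), which belong to Marco, Cxcl3, Cpd and, in overlapping windows, Il1rn. It was found in 3 of 129 promoters of fallen genes (2.33%), in 1.79% of 11252 promoters of tested genes and in 1.63% of all 32841 promoters. For the C/EBP motif the shares were 13.4%, 13.2%, 8.68% and 10.8%, and for the STAT6 motif 6.10%, 7.75%, 5.60% and 6.95%. RefSeq promoters were matched for 62 of the 79 risen and 101 of the 133 fallen genes. A match describes letters in these windows and is no evidence of binding.

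Cxcl3, which encodes a chemokine that draws neutrophils through CXCR2, was the called member of its family. It stood at 19.4, 29.2, 571 and 1204 CPM in RelB-DBDB (control, 1, 3 and 8 h) and in IFNAR;RelB-DBDB cells at 2.00, 5.01, 95.8 and 371 CPM, with a log2 step of 1.51 ± 0.253 (SE, adjusted p = 0.0395). Its level was lower in IFNAR;RelB-DBDB in all 4 conditions, and it rose in both genotypes. Cxcl5 had steps of 2.86 and 3.41 on the log2 scale, from 41.0 to 305 and from 3.10 to 42.6 CPM, and missed the threshold (adjusted p = 0.111). Cxcl1 had a log2 step of 0.57 (adjusted p = 0.603) and Cxcl2 of -0.11 (adjusted p = 0.817). Cxcl2 and Cxcl3 are close copies whose 50-base reads may be assigned to either gene, so both values are uncertain. Among 13 tested CC and interferon-linked chemokines Ccl5, which attracts T cells and monocytes, was the only one called (1.81% of all genes were). It went from 1053 to 2125 and from 1239 to 2705 CPM (log2 step 1.07, adjusted p = 0.0178). Ccl22, a ligand of CCR4 made in large amounts by dendritic cells, went from 16395 to 25273 and from 14406 to 24839 CPM without a call (log2 step 0.71, adjusted p = 0.0859).

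Several surface molecules and sensors of myeloid cells rose. Cd38, an ectoenzyme that degrades NAD, stood at 28.4 and 27.5 CPM at 3 h and at 99.7 and 108 CPM at 8 h, the genotypes lying close together (log2 step 1.86 ± 0.174, SE, adjusted p = 0.00984). Ms4a6c went from 6.50 to 57.9 and from 4.19 to 27.7 CPM (log2 step 2.72, adjusted p = 0.0123), and Ms4a4c from 6.38 to 67.5 and from 8.38 to 29.9 CPM (log2 step 2.47, adjusted p = 0.0418). They belong to a family of tetraspanning membrane proteins, and the step of Ms4a4c was smaller in IFNAR;RelB-DBDB by 1.49 (adjusted p = 5.31e-05 for the difference). Siglece, an inhibitory receptor for sialic acid, rose from 2.28 to 9.27 and from 1.64 to 17.2 CPM (log2 step 2.22, adjusted p = 0.0344). Among 29 Toll-like receptors and signalling proteins Tlr1 and Irak3 rose (0.673% of all genes did) and none fell (1.13% did). Tlr1 is the partner of TLR2 for bacterial lipopeptides, and Irak3 is an inhibitor of MyD88 signalling. With so few genes falling in all, a list of this size can hold none. Tlr1 went from 10.8 to 40.9 and from 7.83 to 31.3 CPM (log2 step 1.85, adjusted p = 0.0337), and Irak3 from 35.7 to 126 and from 29.7 to 81.4 CPM (log2 step 1.61, adjusted p = 0.0123). Tlr9 itself was not called (log2 step 0.35, adjusted p = 0.485).

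Monocyte and macrophage markers moved both ways. Calls in this and the dendritic cell marker list are to be read beside all genes tested, of which 0.673% rose and 1.13% fell. Of 13 tested, Emr1, which encodes F4/80, rose from 111 to 204 and from 85.4 to 311 CPM (log2 step 1.37, adjusted p = 0.0483), and Ly6c2 from 9.23 to 45.8 and from 22.0 to 54.2 CPM (log2 step 1.73, adjusted p = 0.0415). Ccr2, the receptor that brings monocytes out of the marrow, fell from 103 to 33.6 and from 283 to 103 CPM (log2 step -1.52, adjusted p = 0.0326). The dendritic cell marker list of 13 had 1 called member, Dpp4, which encodes the peptidase CD26 and rose from 22.8 to 96.4 and from 39.0 to 90.0 CPM (log2 step 1.61, adjusted p = 0.0263). Chemerin receptor Cmklr1 rose (log2 step 1.60, adjusted p = 0.0231), and Gpr183, the oxysterol receptor that positions dendritic cells, fell from 27.9 to 3.39 and from 22.8 to 6.20 CPM (log2 step -2.22, adjusted p = 0.0220). Ccr7, which guides mature dendritic cells to lymph nodes, measured 1031 and 1119 CPM in RelB-DBDB cells and in IFNAR;RelB-DBDB cells at 731 and 1350 CPM, with no call for a shared step (log2 step 0.50, adjusted p = 0.229).

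Genes of iron, haem and oxidant handling, a group chosen after their values were seen, changed in both directions. Fth1, the ferritin heavy chain that stores iron, went from 4946 to 10941 CPM in RelB-DBDB cells and in IFNAR;RelB-DBDB cells from 3527 to 7398 CPM (log2 step 1.11 ± 0.137, SE, adjusted p = 0.0226), with the caution that it has processed pseudogenes that can take reads. Slc11a1, which encodes the phagosomal metal pump NRAMP1, rose from 46.5 to 95.8 and from 38.4 to 119 CPM (log2 step 1.31, adjusted p = 0.0276). Slc40a1, the iron exporter ferroportin, went the other way, from 93.4 to 27.4 and from 60.3 to 18.3 CPM (log2 step -1.70, adjusted p = 0.0123), to below its control levels of 40.7 and 29.9 CPM. Alas1, the first enzyme of haem synthesis, rose (log2 step 1.25, adjusted p = 0.0123), and so did Blvrb, a biliverdin reductase (log2 step 0.96, adjusted p = 0.0250). Hmox1, the enzyme that degrades haem, fell from 5841 to 1897 and from 2075 to 1031 CPM (log2 step -1.31, adjusted p = 0.0239), back to within 10% of its control level in both genotypes. Cybb, the catalytic subunit of the phagocyte NADPH oxidase, rose from 547 to 1273 and from 561 to 1171 CPM (log2 step 1.14, adjusted p = 0.0125). Beside it rose Sod2, the mitochondrial superoxide dismutase (log2 step 1.03, adjusted p = 0.0326), and Cat, which encodes catalase (log2 step 0.97, adjusted p = 0.0238).

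**Figure D2:**
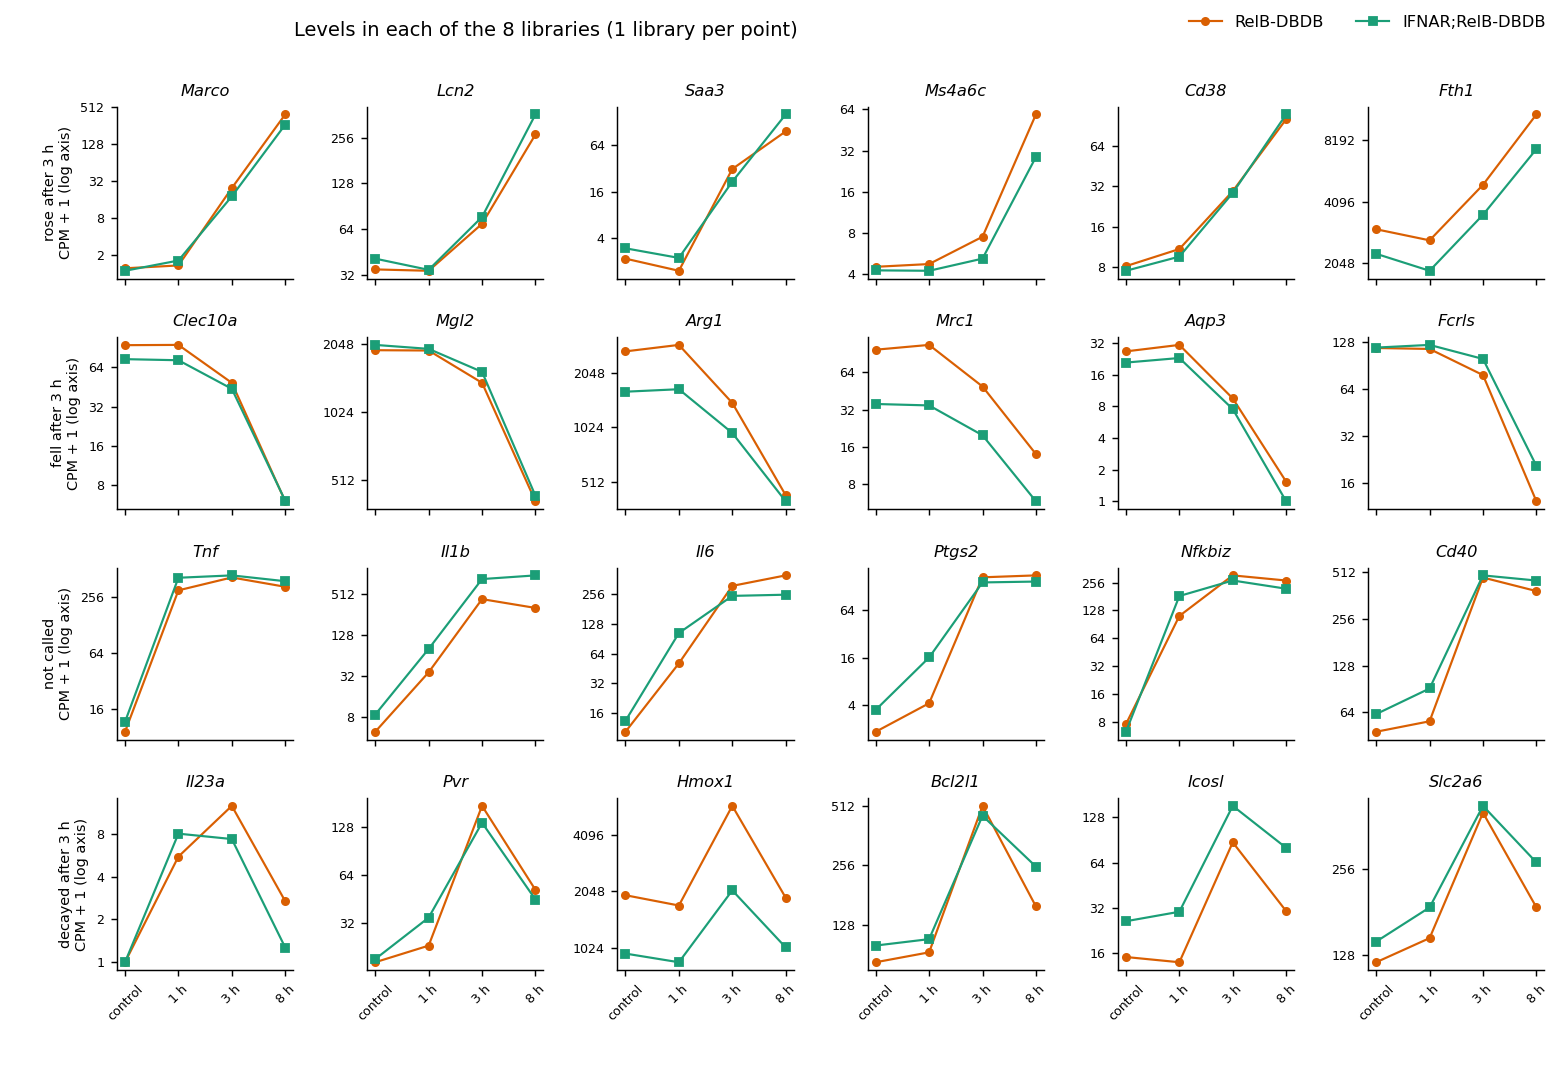
CPM + 1 (log axis) of 24 genes in each of the 8 libraries, 1 point per library, with RelB-DBDB in orange and IFNAR;RelB-DBDB in green; rows hold genes that rose after 3 h, fell after 3 h, were not called, or decayed after 3 h. Marco rose at both intervals, Clec10a fell to 5.05 and 5.12 CPM, Tnf stayed within 2-fold of its 3 h level, and Hmox1 peaked at 3 h.

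Part of the IL-4-induced genes fell. Of 23 tested members of this list 7 were lower (1.13% of all genes were), none was higher and 16 were not called, with 10 staying within 2-fold in both genotypes. The 7 were Clec10a, Alox15, Mrc1, Mgl2, Arg1, Tgm2 and Retnla. The median log2 step of the list was -0.71, against -0.09 over all genes tested. All 7 were late-repressed, within 2-fold of control at 3 h. Clec10a, a lectin for galactose and N-acetylgalactosamine, stood in RelB-DBDB at 93.4, 93.8, 47.6 and 5.05 CPM (control, 1, 3 and 8 h) and in IFNAR;RelB-DBDB at 72.8, 71.4, 42.8 and 5.12 CPM. Its levels were steady through 1 h, lower at 3 h and lowest at 8 h, with a log2 step of -2.92 ± 0.17 (SE, adjusted p = 0.00521). Its neighbour and close copy Mgl2 stood at 1913, 1907, 1374 and 413 CPM and at 2019, 1939, 1536 and 436 CPM, with a log2 step of -1.77 ± 0.123 (adjusted p = 0.00521). Short reads can be shared between the pair, so how each moved alone is uncertain. Mrc1, the mannose receptor, went from 48.3 to 13.1 and from 18.9 to 4.85 CPM (log2 step -1.79, adjusted p = 0.00984).

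Enzymes of the same list followed. Arg1, which converts arginine to ornithine and urea, stood at 2675, 2902, 1395 and 434 CPM in RelB-DBDB cells and in IFNAR;RelB-DBDB cells at 1607, 1658, 954 and 402 CPM, with a log2 step of -1.46 ± 0.189 (SE, adjusted p = 0.0231). Its 8 h levels of 434 and 402 CPM lay closer together than those of any earlier condition. Alox15, a lipoxygenase, went from 39.3 to 5.62 and from 69.6 to 24.5 CPM (log2 step -2.04, adjusted p = 0.0354). Tgm2, a transglutaminase, went from 1570.4 to 440.1 and from 1536 to 722 CPM (log2 step -1.46, adjusted p = 0.0399), and Retnla, which encodes RELMα, from 357 to 135 and from 889 to 404 CPM (log2 step -1.26, adjusted p = 0.0231). Eosinophils express Alox15 as well, and the summed eosinophil markers were lower at 8 h in both genotypes, with 71.9 (3 h) and 22.2 CPM (8 h) for RelB-DBDB, and 118 and 73.0 CPM for IFNAR;RelB-DBDB. Their part in these steps was not tested. Ccl17, another IL-4 target, had no shared step and measured 1517 and 808 CPM in RelB-DBDB cells and in IFNAR;RelB-DBDB cells at 1719 and 1857 CPM (log2 step -0.40, adjusted p = 0.495).

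Neighbouring genes fell together on chromosome 11, a region picked after its values were seen, with called genes as its ends. The regions on chromosomes 1 and 19 given below were also chosen with results known, and the first starts at a called gene. Counts within these regions are therefore no test. Of all genes tested 1.13% fell and 0.673% rose. Between 70092644 and 70352031 (mm10, GENCODE M21) 7 genes were tested, and Asgr2, Mgl2, Clec10a, Alox12e and Alox15 fell. Asgr2, a subunit of the asialoglycoprotein receptor, went from 56.5 to 12.5 and from 49.0 to 12.4 CPM (log2 step -1.996, adjusted p = 0.00644). Alox12e went from 1.82 to 0.0806 CPM on 3 reads and from 3.82 to 0.269 CPM on 1 read (log2 step -1.66, adjusted p = 0.0276). Slc16a13 and Alox12, which lie between Clec10a and Alox12e, had log2 steps of -0.05 (adjusted p = 0.910) and 0.32 (adjusted p = 0.530). On chromosome 1, from 40074079 to 40551705, 3 of 6 tested receptor genes of the IL-1 family fell. Il1r2, a decoy receptor for IL-1, went from 46.7 to 10.5 and from 36.1 to 9.43 CPM (log2 step -1.94, adjusted p = 0.00644). Il1rl1, the receptor of IL-33, went from 7.86 to 1.64 and from 20.8 to 7.0047 CPM (log2 step -1.60, adjusted p = 0.0231), and Il18r1 from 3.53 to 0.752 and from 5.64 to 1.35 CPM (log2 step -1.44, adjusted p = 0.0428). Il1r1, the signalling receptor of IL-1, was not called (log2 step 0.54, adjusted p = 0.362). On chromosome 19, from 11321039 to 11604849, Ms4a4c and Ms4a6c rose among 7 tested Ms4a genes, whose close copies can share reads. Ms4a6b and Ms4a7 had log2 steps of 2.01 (adjusted p = 0.166) and 1.21 (adjusted p = 0.0737).

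**Figure D3:**
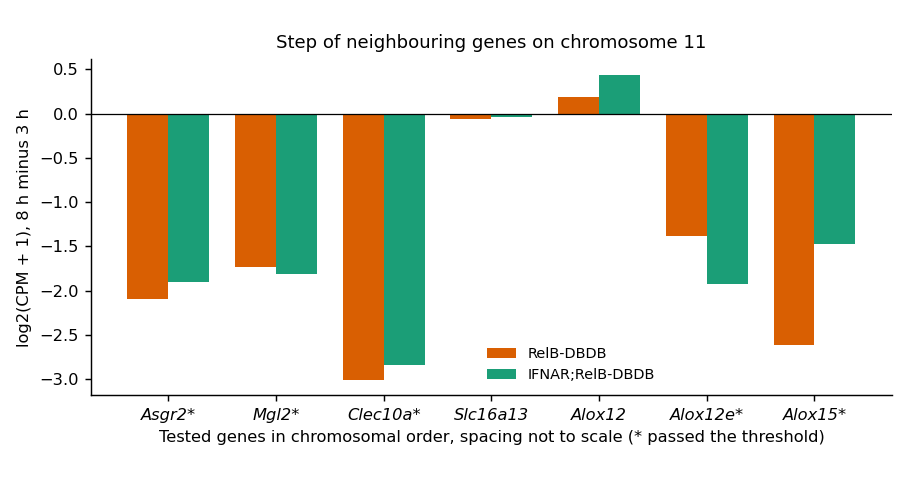
Change of log2(CPM + 1) from 3 h to 8 h (bars, 1 library against 1) for the 7 tested genes from Asgr2 to Alox15 on chromosome 11, in chromosomal order without scale, RelB-DBDB in orange and IFNAR;RelB-DBDB in green. The 5 genes with an asterisk fell in both genotypes, and Slc16a13 and Alox12 have bars near 0.

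The other large decreases came from several functions. Aqp3, a channel for water and glycerol, stood at 25.8, 29.9, 8.55 and 0.537 CPM in RelB-DBDB cells and in IFNAR;RelB-DBDB cells at 20.0, 22.2, 6.55 and 0 CPM (log2 step -2.78 ± 0.2, SE, adjusted p = 0.00521). It had already fallen by 3 h and went on falling, and its 0 reads at 8 h allow up to 0.808 CPM. Matk, a kinase that restrains SRC-family kinases, shared this course (16.6 to 2.34 CPM and 25.1 to 4.04 CPM, log2 step -2.39, adjusted p = 0.00521). Ramp1, the partner of the receptor for the neuropeptide CGRP, went from 24.962 to 3.57 and from 38.1 to 4.85 CPM (log2 step -2.62, adjusted p = 0.00644). Fcrls, an Fc receptor-like scavenger gene, went from 77.8 to 11.3 and from 99.1 to 19.7 CPM (log2 step -2.48, adjusted p = 0.00645). Fbp1, an enzyme of gluconeogenesis, went from 186 to 31.0 and from 74.8 to 16.7 CPM (log2 step -2.32, adjusted p = 0.00644). Emp1 (-2.61), Fam115c (-2.41), Car4, a membrane carbonic anhydrase (-2.28), Selenbp1 (-2.28) and Lmna, which encodes lamin A/C (-1.55), fell too.

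Of the genes that had peaked early, 16 decayed. Il23a, the p19 subunit of IL-23, had 0 reads in both controls. At 1, 3 and 8 h RelB-DBDB cells had 4.55, 11.6 and 1.69 CPM and IFNAR;RelB-DBDB cells 7.05, 6.37 and 0.269 CPM, the last on 1 read. Its log2 step was -2.38 ± 0.4 (SE, adjusted p = 0.0399), and the ratio of 8 h to 3 h was 0.146 (exact 95% Poisson interval 0.105 to 0.201) and 0.0423 (0.00104 to 0.252). Il12b, whose product pairs with p19 in IL-23, was not called and stood higher at 8 h, going from 643 to 1045 and from 672 to 1124 CPM (log2 step 0.72, adjusted p = 0.296). Pvr, the CD155 ligand of DNAM-1 and TIGIT, stood at 17.0, 21.9, 172 and 50.3 CPM and at 17.9, 33.4, 135 and 43.6 CPM (log2 step -1.68, adjusted p = 0.0272). Bcl2l1, which encodes the survival protein BCL-xL, went from 509 to 158 and from 454 to 252 CPM (log2 step -1.26, adjusted p = 0.0339), and Icosl, the ligand of the T cell costimulator ICOS, from 86.3 to 29.3 and from 152 to 79.2 CPM (log2 step -1.23, adjusted p = 0.0359). The sugar transporter gene Slc2a6, the serpin gene Serpina3f, which has near copies, and Gcnt4, Oaf, Tle3 and Rasa2 were also in this group. In RelB-DBDB a median of 12.8% of the increase present at 3 h was left at 8 h (range -21.8% to 23.8% over the 16 genes, 6 of them below control). In IFNAR;RelB-DBDB it was 13.7% (range -15.6% to 44.9%, 1 below control). These shares follow in part from the way the group was chosen.

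Most early inflammatory genes were not called for a shared step. Of 26 tested, Il1rn rose (0.673% of all genes did), Il23a fell (1.13% did) and 24 were not called. In both genotypes 20 of the 26 moved less than 2-fold, as did 85.2% of all genes tested. The step differed between genotypes for 7 of the 26, higher in IFNAR;RelB-DBDB for 2 and lower for 5 (30.7% and 9.80% of all genes). Tnf stood at 8.08, 298, 411 and 326 CPM in RelB-DBDB cells and in IFNAR;RelB-DBDB cells at 10.6, 408, 432 and 374 CPM (log2 step -0.27 ± 0.142, SE, adjusted p = 0.343). Il6 went from 307 to 392 and from 243 to 250.3 CPM (log2 step 0.20, adjusted p = 0.788), and Ptgs2, the inducible cyclooxygenase, from 163 to 173 and from 141 to 144 CPM (log2 step 0.06, adjusted p = 0.960). Il1b went from 428 to 318 CPM in RelB-DBDB cells and in IFNAR;RelB-DBDB cells from 843 to 955 CPM, in opposite directions. The difference was 0.61 on the log2 scale with library totals (adjusted p = 0.0012 by limma, 1 residual degree of freedom). For Il1b it was not called under every scaling of the libraries that was tried. Nos2, the inducible nitric oxide synthase, and Irg1, which makes itaconate, were not called for a shared step, and both steps were lower in IFNAR;RelB-DBDB (by 0.89 and 0.66 on the log2 scale, adjusted p = 1.41e-07 and 0.000153). Il10 had 0.456 and 0.364 CPM at 3 h and 1.75 and 2.69 CPM at 8 h (log2 step 1.18, adjusted p = 0.0857). A missed threshold does not show that these genes stayed level.

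The lists of early transcription factors and of NF-κB feedback genes held no called member. None of 24 NF-κB subunits and feedback regulators and none of 26 immediate-early factors passed (1.81% of all genes did). In both genotypes 21 and 25 of them moved less than 2-fold, as did 85.2% of all genes tested. With so few calls in all, lists of this size can hold none. Nfkbia, which encodes IκBα, went from 997 to 745 and from 889 to 809 CPM (log2 step -0.28, adjusted p = 0.332), and Nfkbiz, which encodes IκBζ, from 304 to 268 and from 268 to 218 CPM (log2 step -0.24, adjusted p = 0.622). Tnfaip3, which encodes A20, went from 634 to 389.9 and from 589.8 to 422 CPM (log2 step -0.59, adjusted p = 0.180). Egr1, high at 1 h (108 and 162 CPM), stood at 6.38 and 11.1 CPM at 3 h and at 6.45 and 11.9 CPM at 8 h. Of 14 regulators of cytokine mRNA decay Zfp36l1, an AU-rich element binding protein, rose from 235 to 508 and from 328 to 506 CPM (log2 step 0.87, adjusted p = 0.0436), while its relative Zfp36 was not called (log2 step 0.04, adjusted p = 0.932). Ehf, an ETS factor, rose from 2.62 to 13.3 and from 3.64 to 18.6 CPM (log2 step 2.03, adjusted p = 0.0123).

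The 4 recovering genes had dipped at 3 h. Amica1, an adhesion molecule of leukocytes, stood at 35.8, 35.2, 14.9 and 49.7 CPM in RelB-DBDB cells and in IFNAR;RelB-DBDB cells at 30.2, 29.1, 12.9 and 41.2 CPM (log2 step 1.63, adjusted p = 0.00984). Per1, a circadian clock gene, stood at 28.6, 31.2, 9.0045 and 23.7 CPM and at 34.4, 36.8, 11.7 and 21.3 CPM (log2 step 1.06, adjusted p = 0.0483). Amica1 went above its control levels and Per1 stayed below them. Arhgap25 regained part of its fall, from 25.5 to 49.9 and from 27.1 to 48.8 CPM, against controls of 98.9 and 86.3 CPM. Trp53cor1, a long noncoding RNA, rose from 3 reads and 1 read at 3 h, with ratios of 8.49 (exact 95% Poisson interval 2.83 to 41.8) and 14.8 (2.10 to 642).

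Glycolysis, respiratory chain and MHC class II lists had medians below that of all genes, and of them only the glycolysis list held calls. Of 24 glycolysis genes, Slc2a6 and Aldoc (log2 step -1.38, adjusted p = 0.0123) fell (1.13% of all genes did) and none rose. The median log2 step of the glycolysis list was -0.47. Aldoc went from 57.9 to 21.6 CPM in both genotypes. Of 64 nuclear-encoded respiratory chain genes 48 were lower in both genotypes (of all genes tested 33.8% were) and none was called. Their median step was -0.73 in RelB-DBDB and -0.12 in IFNAR;RelB-DBDB, where the medians over all genes were -0.22 and 0.04. The RelB-DBDB 8 h library, with its larger mitochondrial share, enters the first of each pair. Between the single libraries 18 of the 64 fell at least 2-fold in RelB-DBDB (8.44% of all genes did) and 0 in IFNAR;RelB-DBDB (2.07% did). Among 14 MHC class II presentation genes 10 were lower in both genotypes and none was called. With median-ratio factors the median shared step of all genes moved from -0.09 to 0.01, and with TMM factors to 0.03. The median difference of the step, IFNAR;RelB-DBDB minus RelB-DBDB, moved further, from 0.27 to -0.02 and -0.07. TMM factors at 3 h and 8 h were 0.971 and 0.780 in RelB-DBDB, and 0.998 and 1.03 in IFNAR;RelB-DBDB. List medians of single genotypes, above all of RelB-DBDB, therefore depend on scaling by more than the shared shift.

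**Figure D4:**
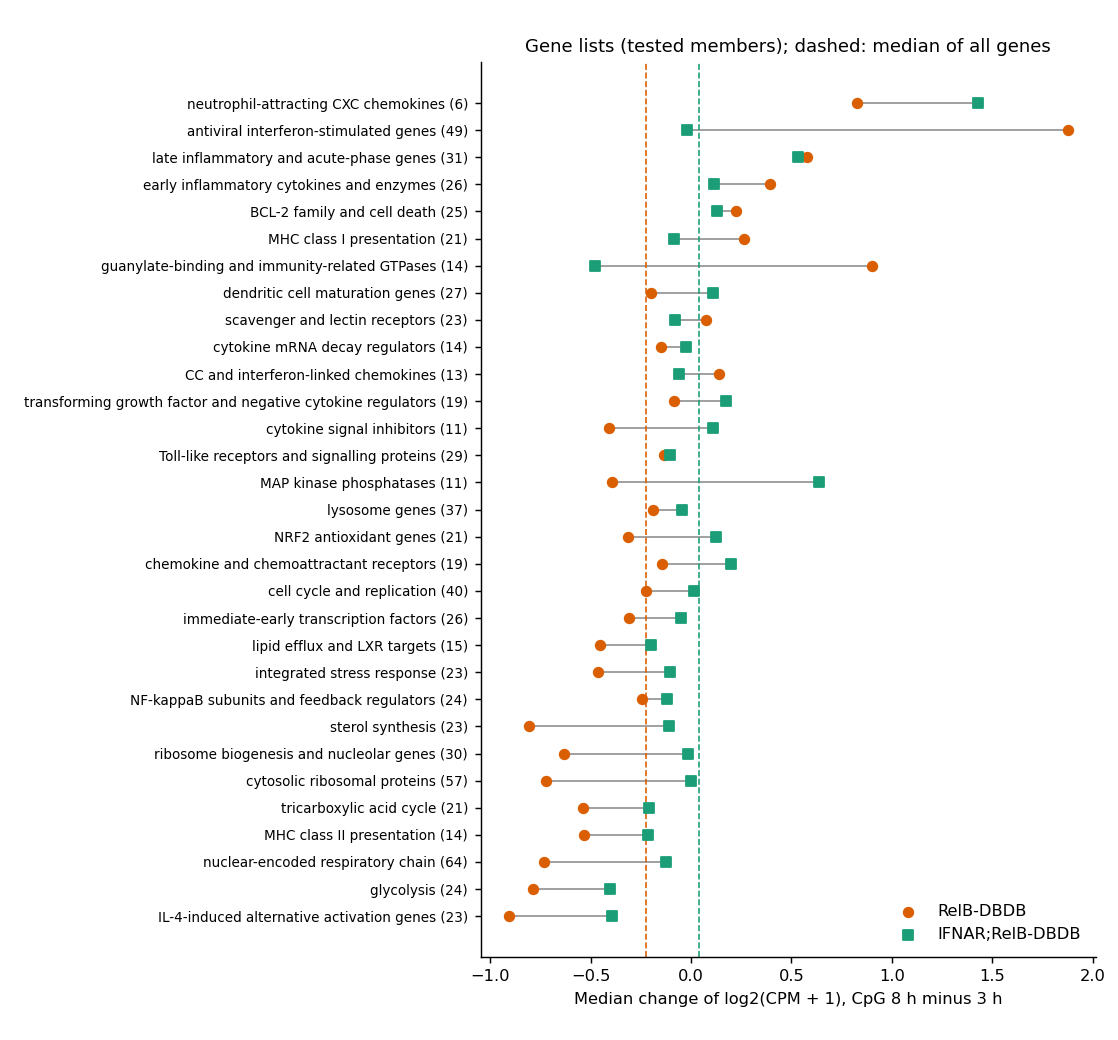
Median change of log2(CPM + 1) from 3 h to 8 h over the tested members of 31 gene lists (number in parentheses), RelB-DBDB as orange circles and IFNAR;RelB-DBDB as green squares, with dashed lines for the medians over all genes, -0.22 and 0.04. The neutrophil-attracting chemokines stand highest and the IL-4-induced genes lowest when both genotypes are averaged, and the interferon-stimulated genes show the widest gap between genotypes.

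Interferon-stimulated genes show where the genotypes parted. None of 49 passed as a shared step. In RelB-DBDB 43 of them rose at least 2-fold between the single libraries (3.66% of all genes did), and in IFNAR;RelB-DBDB 0 did (2.60% of all genes did). The step was lower in IFNAR;RelB-DBDB for 47 of 49, and for all 14 guanylate-binding and immunity-related GTPases, by a limma test of the difference that called 9.80% of all genes in this direction and 30.7% in the other. That test has 1 residual degree of freedom, and its split depends on scaling: 3609 genes higher and 1151 lower became 1775 and 2369 with median-ratio factors and 1510 and 2536 with TMM factors, where all 49 were lower. Irf7, a transcription factor that amplifies interferon production, went from 33.3 to 290.02 CPM in RelB-DBDB cells and in IFNAR;RelB-DBDB cells from 4.37 to 2.42 CPM. Ifit1 went from 131 to 739.9 and from 8.19 to 8.35 CPM. The interferon β gene Ifnb1 stood at 0.912 and 1.34 CPM and at 1.09 and 2.16 CPM, too few reads to tell its steps apart from none. Cxcl10 showed a further pattern, from 72.5 to 66.1 CPM in RelB-DBDB cells and in IFNAR;RelB-DBDB cells from 63.4 to 8.89 CPM (difference -2.57, adjusted p = 2.97e-10).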

How the data were processed

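Single-end reads of 50 bases from stranded mRNA libraries, made with 1 µg of RNA each, were sequenced on an Illumina instrument per the labels' protocols. Cutadapt, edgeR and the build mm10 are named in the submitters' processing notes. No source used here gives the aligner, the annotation or the use of strand in counting, and reads of overlapping or antisense genes may be mixed. The table deposited by the authors holds a signal equal to CPM plus 1, which was checked on the file: after subtracting 1 each column sums to the same total and every value is a whole number of reads within 0.01 read. 16 columns of other samples were not used. Of 27178 rows, 2161 have no gene name (0.0737% to 0.131% of reads) and were left out of tests, and the rows of 11 repeated names are not named.

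log2(CPM + 1), which understates changes of low genes, was the response in limma 3.58.1 under R 4.3.3 (moderated variances, trend on), with genotype and condition as additive terms over all 8 libraries and 3 residual degrees of freedom. The step is 8 h minus 3 h, called at an adjusted p under 0.05. A second model let the genotype difference at 3 h and at 8 h depart from that shared by control and 1 h. Both were run on simulated counts with changes planted at 8 h. No difference of the step between genotypes was planted, so detection of such a difference by the second model was not tested. Count models, planned as alternatives on worked-back reads, were not run. Python 3.11.15 with matplotlib 3.10.9 made the figures, scipy 1.17.1 gave the exact intervals at 95%, and a count of 0 allows 3 reads. Coordinates are from GENCODE M21.

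Genes and lists were chosen with earlier results of these data known. Named are a panel of cytokine, chemokine, feedback and interferon genes, the 12 largest increases and decreases with at least 10 CPM in a library, up to 4 called members and the largest opposite change of each list, and up to 5 genes per course. Genes outside this rule are further called members of lists or courses, neighbours and limit cases, or, as with Slc11a1, Alas1, Slc40a1, Cybb, Cat and Lmna, picked after their values were seen. The alternatives were median-ratio and TMM factors, other pseudocounts and filters, limma-voom on worked-back reads, fewer libraries and no genotype term.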

Additional observations from a re-analysis of the deposited data

Results flagged for a closer look

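Of 118 named genes, 36 had a step that differed between genotypes by the limma test of the difference, with the same sign under library totals, median-ratio factors and TMM factors. With library totals alone the test called the step higher in IFNAR;RelB-DBDB for 30.7% of all genes and lower for 9.80%. The share of all genes called under all 3 scalings was not computed, so the 36 cannot be read as particular to the named genes. The test has 1 residual degree of freedom, the change of the genotype difference between control and 1 h. Values below are IFNAR;RelB-DBDB minus RelB-DBDB, on the log2(CPM + 1) scale.

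Among the genes called as shared increases, the step was larger in IFNAR;RelB-DBDB for Saa3 (1.28) and Cxcl3 (0.87), and smaller there for Ms4a4c (-1.49), Slc8a1 (-1.03), Cmklr1 (-0.61), Il1rn (-0.54) and Zfp36l1 (-0.49). Among shared decreases the fall was smaller in IFNAR;RelB-DBDB for Alox15 (1.14), Gpr183 (1.00), Serpina3f (0.91), Bcl2l1 (0.83) and Fam115c (0.80), and larger there for Car4 (-0.73), Emp1 (-0.59) and Scd1 (-0.41).

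Interferon-linked genes with no shared step had lower steps in IFNAR;RelB-DBDB, at -3.73 for Irf7, -2.57 for Cxcl10, -2.47 for Ifit1, -1.95 for Mlkl, -1.76 for Isg15 and -1.08 for Tgtp1. The same sign was found for Cenpe (-1.31), Rpl35 (-1.30), Tlr9 (-0.96), Nos2 (-0.89), Ndufa12 (-0.75), Irg1 (-0.66), Zfp36 (-0.58), March1 (-0.57), Pfkfb3 (-0.45) and Ctsz (-0.28). Steps were higher in IFNAR;RelB-DBDB for Csf3 (1.53), Relb (1.02), Ccl17 (1.02), Ccr7 (0.77) and Cebpb (0.76).

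In 7 of the 36 the steps of the genotypes had opposite signs, namely Irf7, Tlr9, Irg1, March1, Zfp36, Tgtp1 and Ccl17. For Irf7, Tlr9, Irg1 and March1 the exact interval of the ratio in IFNAR;RelB-DBDB included 1, so no movement there was detectable at this depth. Relb, which both genotype names carry, fell from 197 to 92.5 CPM between the RelB-DBDB libraries and stood at 206 and 197 CPM in IFNAR;RelB-DBDB.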

How the results depend on the processing

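The 212 called genes kept their sign under every alternative in which they were tested. This was largely fixed in advance, since all 212 had the same sign in both genotypes. The fitted step itself does not change in the fit of 4 libraries, with no genotype term, or with a control or 1 h library left out. The 79 higher and 133 lower genes became 13 and 26 with no filter, 157 and 307 with limma-voom, 198 and 235 in a fit of the 4 libraries of the step, and 4 and 11 with no genotype term. With 1 library left out they ranged from 0 to 1451 and from 0 to 3588. Median-ratio factors (103 and 144), TMM factors (104 and 138), mitochondrial genes left out (93 and 138), a pseudocount of 5 (86 and 117) and a 5 CPM filter (69 and 110) moved them less. The 3609 higher and 1151 lower genes whose step differed between genotypes became 0 in all with no filter by limma, where 5321 had an unadjusted p under 0.05, and 2617 and 807 with limma-voom. The cause was not tested. The planned count models were not run on the worked-back reads, since the deposited unit is not counts. The labels give no replicate numbers, so pairing was by genotype alone.

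Steps that changed sign belonged to genes with no call. Egr1 became -0.029 with limma-voom, Cxcl9 0.041 with median-ratio and 0.061 with TMM factors, and with TMM factors Cxcl2 became 0.022 and Il1b 0.0071. With 1 library left out the lowest and highest steps were -0.18 and 3.08 for Isg15, -1.49 and 4.004 for Ifit1, -1.48 and 3.92 for Irf7, -0.16 and 2.36 for Mlkl, and -0.12 and 1.25 for Cxcl1. They were -0.13 and 0.83 for Tlr9, -0.32 and 0.95 for Irg1, -0.11 and 0.54 for March1, -0.30 and 0.69 for Il6, and -0.51 and 0.62 for Ptgs2. They were -0.14 and 0.23 for Egr1, -0.32 and 0.41 for Zfp36, -0.45 and 0.32 for Cxcl9, -0.32 and 0.10 for Cxcl2, -0.42 and 0.17 for Il1b, and -1.23 and 0.69 for Tgtp1. They were -0.58 and 0.0047 for Socs3, -0.99 and 0.20 for Ccl17 and -3.28 and 0.45 for Cxcl10.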

Other observations

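Calls in further lists are to be read beside all genes tested, of which 0.673% rose and 1.13% fell. Cytosolic ribosomal protein genes (57 tested) had a median log2 step of -0.72 in RelB-DBDB and 0.0021 in IFNAR;RelB-DBDB. Sterol synthesis genes (23 tested) had -0.81 and -0.11, with no gene of either list called. Over all genes tested the medians were -0.22 and 0.04, and medians of single genotypes depend on scaling. Of 21 NRF2 antioxidant genes Fth1 and Blvrb rose and Hmox1 fell. Of 40 cell cycle and replication genes none was called, and their medians were -0.22 and 0.01. Of 27 dendritic cell maturation genes Icosl fell and none rose. The MHC class I presentation list (21 tested) had all its members moving less than 2-fold in both genotypes, as did 85.2% of all genes tested. H2-M2, a class I gene outside that list, rose from 95.7 to 305 and from 69.6 to 164 CPM (log2 step 1.44, adjusted p = 0.0179).

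A few other genes, chosen after their values were seen, fell, and Pla2g4f, a phospholipase A2 gene, rose (log2 step 1.39, adjusted p = 0.0377). Alox5ap, which presents arachidonic acid to 5-lipoxygenase, went from 177 to 69.0 CPM in RelB-DBDB cells and in IFNAR;RelB-DBDB cells from 166 to 86.5 CPM (log2 step -1.14, adjusted p = 0.0276). Tbxas1, the thromboxane synthase gene, went from 107 to 41.7 and from 135 to 55.8 CPM (log2 step -1.30, adjusted p = 0.0123). Trem2, a lipid receptor of macrophages, went from 69.4 to 27.9 and from 47.3 to 19.4 CPM (log2 step -1.26, adjusted p = 0.0125).

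Mitochondrially encoded mRNAs (7 tested) had a median log2 step of 1.77 in RelB-DBDB and 0.16 in IFNAR;RelB-DBDB, and 6 of them rose at least 2-fold in RelB-DBDB. The summed marker levels at 3 h and at 8 h were 15.5 to 31.3 and 9.73 to 40.7 CPM for mast cells and basophils, 146 to 185 and 134 to 338 CPM for plasmacytoid dendritic cells, 22.1 to 36.2 and 23.4 to 49.6 CPM for B cells, 94.1 to 371 and 71.5 to 367 CPM for T and NK cells, 1.60 to 5.10 and 0.484 to 4.04 CPM for erythroid cells, and 43.8 to 56.6 and 37.5 to 44.5 CPM for stromal cells.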
